A study of Mus musculus with 12 samples.

Results

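The comparison set 3 mice given manganese-doped carbon dots (group C: C79, C84 and C85) against 3 mice read as given edaravone (group E: E75, E77 and E90), 6 of the 12 spinal cord libraries of the study. Members were taken by the group letter of their labels, and every gene was compared. All 6 mice came from a model of amyotrophic lateral sclerosis (ALS), a disease in which motor neurons degenerate, and RNA was taken from the lumbar cord. Neither the model's strain, the mice's sex and age, nor the dose, route and timing of either agent is stated in what was used here. The study text lists a group E but describes edaravone under the letter D, so E was read as edaravone by elimination. Of the other groups, P held 3 model mice given phosphate-buffered saline and H held 3 healthy wild-type mice, and both serve below as background. Each number is a separate mouse, and no number is shared between groups.

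Carbon dots are carbon nanoparticles, and doping with manganese can give them catalytic activity towards superoxide and peroxide, the reactions carried out in cells by superoxide dismutases, catalase and peroxidases. Edaravone is a small-molecule scavenger of free radicals used as an ALS drug. In the cord, oligodendrocytes make the myelin, while Schwann cells make that of the nerve roots attached to it. Hox transcription factors are expressed by position along the body axis, with higher-numbered genes further towards the tail.

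The deposited values are FPKM, which divide each gene's reads by its exon length and by the library's mapped reads, so levels are per length. Between 16.8 and 19.8 M reads per library were recovered from the values of the 6 mice. Neuronal Snap25 lay between 271 and 332 FPKM, astrocytic Aqp4 between 186 and 233 FPKM, and oligodendrocytic Mbp between 1199.8 and 2016 FPKM. The motor neuron gene Chat lay between 3.41 and 8.14 FPKM, and the sensory neuron channel Scn10a was listed at 0 in all 6. The lumbar marker Hoxd10 ranged from 0 FPKM in C84 to 24.0 FPKM in E90. The lumbar markers Hoxc10 and Hoxa10 overlapped between groups, and C84 was the lowest mouse for each. Hoxc10 was 24.2, 7.90 and 18.5 FPKM in C79, C84 and C85 and 22.5, 32.6 and 34.9 FPKM in E75, E77 and E90. Hoxa10 was 15.3, 2.02 and 10.7 FPKM in group C and 16.7, 15.7 and 15.3 FPKM in group E. The first principal component of the 6 libraries held 40.0% of the variance and placed C79 and C85 farthest from E77 and E90, with C84 and E75 between them.

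Few genes separated the groups past the threshold. Of 18118 genes tested, 31 passed at an adjusted p of 0.05 (0.171%), by limma on log2(FPKM + 1) with Benjamini-Hochberg adjustment. Of these, 9 were higher in C (0.0497%) and 22 were lower in C (0.121%). Among the 22, Hoxc12 and Cd5l reached the read filter only through the E mice. All 31 had 3 mice of one group above all 3 of the other, as did 6.61% of all genes in the direction of higher C and 10.3% in that of lower C. At an unadjusted p of 0.05, 5.57% of genes were higher and 5.41% lower in C. Whatever their p, 44.7% of all genes were higher and 55.3% lower in C. The median half-width of the 95% interval was 0.253 on the log2 scale, which is 1.19-fold. Differences below are C minus E on that log2(FPKM + 1) scale, which understates the change of low genes. The count rested on single mice and on the spread shared between groups: no gene passed without C79, 1 without C85 (Scn7a), 9 without E90, 15 without E75, 45 without C84, 56 without E77, none without the 3 healthy mice, and 4 when C and E were fitted alone.

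**Figure D1:**
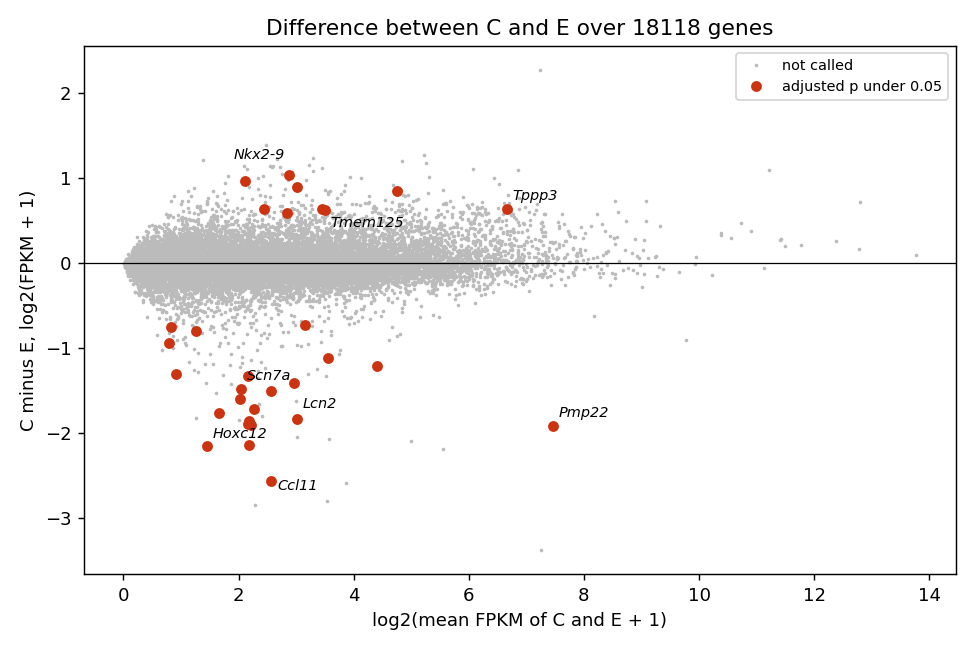
Difference between C and E (C minus E, log2(FPKM + 1), vertical axis) against the mean level of the 6 mice (horizontal axis, log2 scale) for each of 18118 genes. Red points are the 31 genes with an adjusted p under 0.05, of which 22 lie below 0 and 9 above it.

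Genes of Schwann cells were among those that passed lower in C. Of 13 tested members of a list of Schwann cell and nerve root genes, 4 passed, all lower in C, and 11 were lower in C. Over all genes, 0.121% passed lower in C and 55.3% were lower. The median difference of the list was -1.48, against -0.020 over all genes. Scn7a (ENSMUSG00000034810, chr2:66673425-66784914 in GRCm38), a sodium channel family member of glia, was 0.964, 0.924 and 1.67 FPKM in C79, C84 and C85 and 4.11, 4.68 and 6.52 FPKM in E75, E77 and E90. All 3 E mice lay above all 3 C mice, and the difference was -1.48 ± 0.16 (SE; adjusted p = 0.0184). Saline mice had 2.11 ± 0.0501 FPKM (SD, n = 3) and healthy mice 0.723 ± 0.177 FPKM (SD, n = 3). Pmp22, an abundant protein of peripheral myelin, was 50.1, 64.8 and 105 FPKM in group C and 244, 195 and 393 FPKM in group E, with C85 the highest of the C mice (-1.91, adjusted p = 0.0485). Drp2, part of the dystroglycan complex of the Schwann cell membrane, was 10.9, 11.03 and 12.7 FPKM in group C and 25.5, 21.7 and 39.3 FPKM in group E (-1.21, adjusted p = 0.0277). Gldn, which gathers sodium channels at nodes of peripheral nerve, was 0.526, 0.559 and 1.67 FPKM in group C and 5.16, 3.94 and 9.94 FPKM in group E (-1.90, adjusted p = 0.0277). Outside the list, Dhh, a hedgehog ligand made by Schwann cells, was 0.189, 0.436 and 1.44 FPKM in group C and 6.20, 3.72 and 9.40 FPKM in group E (-2.14, adjusted p = 0.0277).

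Scn7a had the smallest p of all genes, and its promoter window in RefSeq (GRCm38.p6, 250 bases before to 50 after the start, 5′ to 3′) is shown. Capitals mark 1 match to GCGTGGGCG, the letters of an EGR site, on either strand.
Scn7a (chr2:66784861-66785160, minus strand): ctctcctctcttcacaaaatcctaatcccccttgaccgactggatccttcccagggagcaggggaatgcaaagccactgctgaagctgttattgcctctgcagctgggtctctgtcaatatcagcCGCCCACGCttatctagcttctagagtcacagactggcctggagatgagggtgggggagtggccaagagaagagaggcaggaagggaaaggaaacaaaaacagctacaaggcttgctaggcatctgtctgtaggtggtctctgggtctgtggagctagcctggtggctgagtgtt
In all, 9 letter patterns were searched on both strands in 4 sets of windows. The windows shown, that of Scn7a included, and the patterns described were chosen after the matches were seen. GCGTGGGCG occurred for 0.707% of all symbols and, among the 10 Schwann genes with a window, in Scn7a alone. ACAAAG, letters of a SOX site, matched none of those 10, against 21.02% of all symbols, while the looser ACAANG matched Cadm4, Egr2 and Scn7a, against 44.9% of all symbols. A match is a description of letters, and none of these was tested as a binding site.

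Several members with large differences did not pass, and they varied widely among the E mice. Prx, a scaffold protein of Schwann cells, was 1.77, 2.08 and 5.61 FPKM in C79, C84 and C85 and 27.1, 11.7 and 33.2 FPKM in E75, E77 and E90. The groups did not overlap, and the difference was -2.59 ± 0.55 (SE; adjusted p = 0.113). Ncmap, a protein of peripheral myelin, was 1.80, 2.51 and 4.39 FPKM in group C and 11.7, 6.80 and 14.7 FPKM in group E (-1.62, adjusted p = 0.0569), and Ngfr, the low-affinity neurotrophin receptor, was 1.03, 1.54 and 1.29 FPKM in group C and 7.40, 2.79 and 10.7 FPKM in group E (-1.66, adjusted p = 0.0618). These 3 were named after their values were seen. The mean log2(FPKM + 1) of the 13 list members was 2.47, 2.71 and 3.14 in C79, C84 and C85 and 4.17, 3.66 and 4.61 in E75, E77 and E90, and was 3.04, 3.29 and 3.03 in the 3 saline mice. In tissue RNA, fewer cells of a type and less RNA per cell cannot be told apart.

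The other genes that passed lower in C included secreted and matrix proteins. Ccl11, a chemokine that attracts eosinophils, was 0.206, 0.301 and 1.72 FPKM in C79, C84 and C85 and 6.93, 6.33 and 14.2 FPKM in E75, E77 and E90, with all E mice above all C mice (-2.56, adjusted p = 0.0277). Sostdc1, a secreted inhibitor of BMP and Wnt signals, was 0.532, 1.10 and 1.12 FPKM in group C and 6.80, 3.72 and 7.86 FPKM in group E (-1.86, adjusted p = 0.0225). Col28a1, a collagen of peripheral nerve, was 0.193, 0.321 and 0.603 FPKM in group C and 2.78, 2.35 and 6.71 FPKM in group E (-1.76, adjusted p = 0.0285). The laminin chain Lamb1 was 1.28, 1.47 and 1.73 FPKM in group C and 4.98, 3.67 and 7.73 FPKM in group E (-1.33, adjusted p = 0.0252). Matn2, Chrdl1, Sbspon, Prrg3, Arhgap19 and the macrophage protein gene Cd5l also passed lower in C, with differences from -1.41 to -0.73. The antisense transcripts Gm45564 and Gm13111 passed lower as well, and their reads cannot be told apart from those of the genes they overlap, since the strand setting of the counting is not given. The fibroblast genes Dcn (5.78, 12.8 and 15.1 FPKM in group C and 39.1, 37.1 and 74.9 FPKM in group E), Lum (1.30, 5.03 and 4.70 FPKM in group C and 13.7, 12.7 and 27.7 FPKM in group E) and Ogn (9.14, 18.6 and 19.9 FPKM in group C and 56.6, 57.6 and 113 FPKM in group E) were lower in every C mouse than in every E mouse without passing (adjusted p = 0.185, 0.214 and 0.160). Of 17 meningeal fibroblast genes, 11 were lower in C and 6 higher, and none passed. The share lower was 64.7%, against 55.3% of all genes. The list median was -0.13, or 0.48 with the mean of the Schwann list as a covariate.

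**Figure D2:**
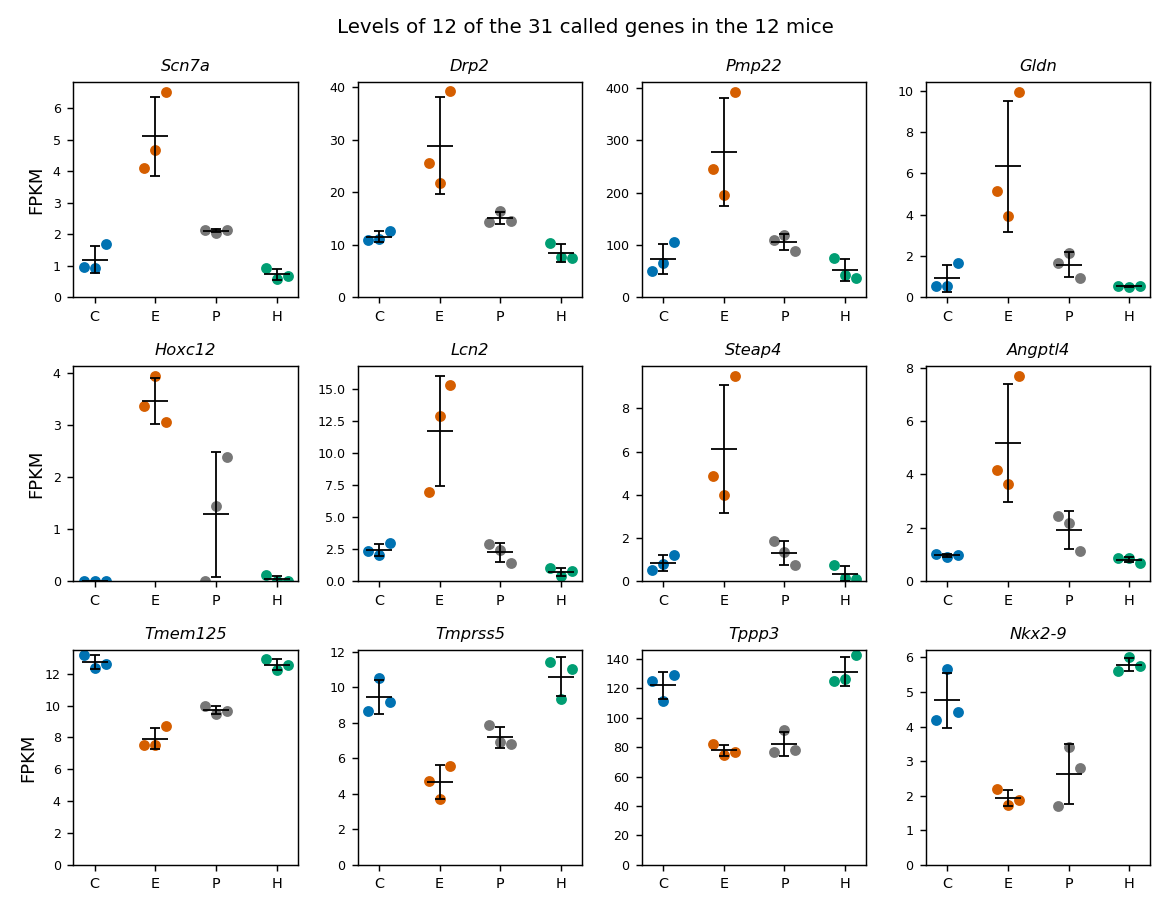
FPKM (vertical axes, from 0) of 12 of the 31 called genes in each mouse of groups C, E, P and H, with 1 point per mouse and black marks for the mean and SD of 3 mice. For Scn7a the 3 E mice lie between 4.11 and 6.52 FPKM and the 3 C mice between 0.924 and 1.67 FPKM.

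Of 12 caudal Hox genes listed, 9 reached the read filter, and 3 of these (Hoxc12, Hoxc13 and Hoxd13) reached it only through the E mice, where they are high, so their direction was set by that choice. The other 6 were all lower in C with a median of -1.22, and none of them passed. Hoxc12 (ENSMUSG00000050328, chr15:102936757-102938609 in GRCm38), 1 of those 3, was the caudal gene that passed, and it was listed at 0 in C79, C84 and C85 and was 3.38, 3.94 and 3.06 FPKM in E75, E77 and E90 (adjusted p = 0.0277), so no fold is given. Hoxc11 was 0.276, 0 and 0.286 FPKM in group C and 5.58, 7.24 and 10.1 FPKM in group E, without overlap (-2.84, adjusted p = 0.187). Hoxd10 was 3.40, 0 and 3.65 FPKM in group C and 10.99, 21.8 and 24.0 FPKM in group E (-2.80, adjusted p = 0.393), and Hoxd13 stayed under 0.34 FPKM in all 6 mice. Among 18 rostral and thoracic Hox genes, 17 were higher in C and none passed, with a median of 0.30, which was -0.013 with the Schwann score as a covariate. Hoxc8 was 20.8, 24.8 and 20.7 FPKM in group C and 14.5, 9.53 and 8.31 FPKM in group E (1.003, adjusted p = 0.181), and Hoxc6 was 12.4, 15.2 and 12.05 FPKM in group C and 10.99, 8.65 and 8.93 FPKM in group E (0.43, adjusted p = 0.160).

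The mean log2(FPKM + 1) of the 9 caudal genes was 1.34, 0.54 and 1.26 in C79, C84 and C85 and 2.25, 2.63 and 2.71 in E75, E77 and E90. C84 was the lowest and all E mice lay above all C mice. Saline mice were spread over most of this range, at 0.86, 2.09 and 2.55 in P66, P67 and P74, and healthy mice gave 1.67, 1.31 and 0.32 in H1, H2 and H4. This caudal mean includes the 3 genes that reached the read filter only through the E mice, so its separation of the groups was partly set by that choice. A mean of the other 6 genes was not taken. The caudal Hox and Schwann scores both separated C from E, in the same 6 libraries as every result here. With either score as a covariate no gene passed, and the lowest adjusted p was 0.340 with the Hox score and 0.447 with the Schwann score. The median standard error over all genes rose from 0.116 to 0.160 and 0.219. Some differences stayed about as large, such as Tmem125 at 0.64 with the Hox score and 0.72 with the Schwann score, Rab37 at 0.58 and 0.71, and Prrg3 at -0.61 and -0.65. Others were smaller with the Schwann score, such as Pmp22 at -0.21 and Dhh at -0.40. Pmp22 is a member of the Schwann list, so that score holds Pmp22 itself and its smaller difference was partly built in. Each score separates the groups, so treatment, cord level and nerve root content cannot be told apart here.

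**Figure D3:**
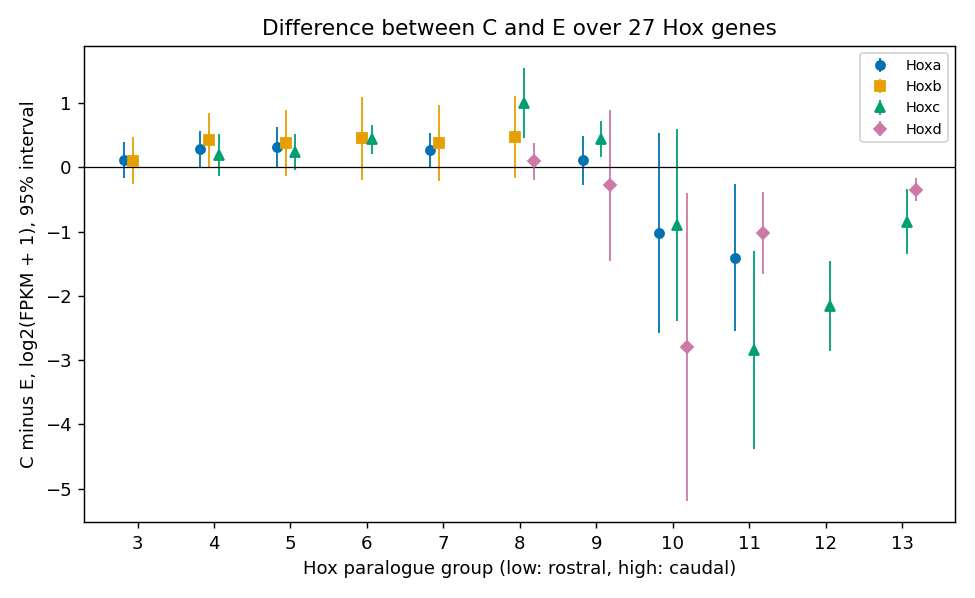
Difference between C and E (C minus E, log2(FPKM + 1), points with 95% intervals) for 27 Hox genes by paralogue group, with colour and shape for the 4 clusters. Genes of groups 10 to 13 lie below 0, 3 of which reached the read filter only through E, and 17 of the 18 genes of groups 3 to 9 lie above it.

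Genes of oligodendrocytes and myelin were higher in C. All 16 members of the myelin list were higher in C, 11 without overlap, but none passed, and the median was 0.34. Over all genes, 44.7% were higher in C, and 6.61% were so without overlap. Mog, on the outer face of central myelin, was 115, 92.7 and 117 FPKM in C79, C84 and C85 and 73.7, 72.7 and 76.3 FPKM in E75, E77 and E90. Every C mouse lay above every E mouse (0.53 ± 0.11 SE, adjusted p = 0.0899). Mag, at the axon-facing myelin membrane, was 210.2, 225 and 208 FPKM in group C and 167, 148 and 169.5 FPKM in group E (0.41, adjusted p = 0.113), and Opalin, a protein of oligodendrocytes, was 19.4, 14.8 and 20.7 FPKM in group C and 13.9, 8.99 and 10.2 FPKM in group E (0.69, adjusted p = 0.188). Mbp (0.47, adjusted p = 0.288) and Cldn11 (0.46, adjusted p = 0.213), named after their values were seen, were also higher in all 3 C mice than in all 3 E mice. The mean of the list was 6.51, 6.44 and 6.53 in C79, C84 and C85 and 6.04, 6.21 and 6.25 in E75, E77 and E90, against 6.47, 6.36 and 6.36 in the saline mice. The list median stayed between 0.23 and 0.39 in 19 other settings.

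Among the 9 genes that passed higher in C, Tmem125 (ENSMUSG00000050854, chr4:118540941-118544044 in GRCm38), a membrane protein, had the smallest p. It was 13.2, 12.4 and 12.6 FPKM in C79, C84 and C85 and 7.52, 7.54 and 8.71 FPKM in E75, E77 and E90, without overlap (0.62 ± 0.073 SE, adjusted p = 0.0216). Tppp3, a tubulin-binding protein, was 125, 111 and 129 FPKM in group C and 81.9, 75 and 76.7 FPKM in group E (0.64, adjusted p = 0.0330). Nkx2-9, a homeodomain factor of the ventral neural tube, was 4.19, 5.66 and 4.43 FPKM in group C and 2.20, 1.72 and 1.89 FPKM in group E (0.97, adjusted p = 0.0426). The protease gene Tmprss5 (0.89, adjusted p = 0.0254), the GTPase gene Rab37 (0.63, adjusted p = 0.0252) and the apoptosis inhibitor gene Aven (0.63, adjusted p = 0.0426) also rose, as did the lincRNA Gm32122 (1.04, adjusted p = 0.0252) and the pseudogene Gm31166 (0.58, adjusted p = 0.0497). Ppp1r14a, an inhibitor of myosin phosphatase, was 33.6, 27.2 and 36.8 FPKM in group C and 18.8, 14.7 and 16.8 FPKM in group E and did not pass (0.91, adjusted p = 0.0534).

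The passing genes were also read in the saline and healthy mice, which the choice did not use except through the shared spread. Of the 9 genes higher in C, 8 passed lower in P than in H, where 3.26% of all genes did. Of the 22 genes lower in C, 9 passed higher in P than in H, where 12.2% of all genes did, and none passed lower. Tppp3 was 82.1 ± 8.30 FPKM (SD, n = 3) in saline and 131 ± 9.83 FPKM (SD, n = 3) in healthy mice, so the C mice lay near the healthy level and the E mice near the saline level. Its E minus P was -0.07 on the log2 scale. In the other genes that passed higher in C, E lay further below saline, such as Tmem125 at -0.27 and Gm32122 at -0.65. For Scn7a, by contrast, the E mice lay above both the saline and the healthy mice.

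Genes responsive to glucocorticoids were lower in C than in E. Of 15 tested members, 14 were lower in C, 2 passed, both lower, and the median was -0.44. Over all genes, 55.3% were lower in C, 0.121% passed lower and the median was -0.020. Lcn2 (ENSMUSG00000026822, chr2:32384633-32388252 in GRCm38), an iron-siderophore carrier of reactive astrocytes and neutrophils, was 2.31, 2.05 and 2.97 FPKM in C79, C84 and C85 and 6.93, 12.9 and 15.3 FPKM in E75, E77 and E90. The groups did not overlap (-1.83 ± 0.26 SE, adjusted p = 0.0252), and saline mice had 2.23 ± 0.747 FPKM (SD, n = 3). Angptl4, a secreted inhibitor of lipoprotein lipase, was 1.0, 0.908 and 0.979 FPKM in group C and 4.17, 3.64 and 7.71 FPKM in group E (-1.60, adjusted p = 0.0252). Fkbp5, a chaperone of the glucocorticoid receptor, was 10.2, 9.26 and 11.03 FPKM in group C and 15.4, 14.3 and 16.9 FPKM in group E without passing (-0.57, adjusted p = 0.188). Outside the list, the metalloreductase gene Steap4 was 0.494, 0.791 and 1.22 FPKM in group C and 4.87, 3.97 and 9.48 FPKM in group E (-1.89, adjusted p = 0.0277). The list mean was 4.15, 4.04 and 4.14 in C79, C84 and C85 and 4.32, 4.76 and 4.90 in E75, E77 and E90, so E75 lay nearest to the C mice. It was 4.15, 4.21 and 3.99 in the saline mice and 4.36, 3.91 and 4.10 in the healthy mice. By group it was 4.11 in C, 4.12 in P, 4.12 in H and 4.66 in E, so C lay at the saline and healthy level and E above it. The median kept its sign in 19 of 19 other settings, from -0.64 to -0.32. The Schwann and caudal Hox scores given above rise in the same mice, and their part in the glucocorticoid and immediate early values was examined only through the covariates, which themselves separate the groups. Lcn2 and Steap4 were also the 2 of 20 reactive astrocyte genes that passed, both lower in C, as did 0.121% of all genes. Of those 20, 13 were lower in C, 4 without overlap, and 7 were higher, 3 without overlap. The median of that list was -0.048, against -0.020 over all genes.

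Immediate early genes, switched on within minutes of stimulation, were lower in C in 16 of 17 cases. None passed, 10 did so at an unadjusted p of 0.05, and the median was -0.41. Over all genes, 55.3% were lower in C, and 5.41% were so at that unadjusted p. Nr4a1, an orphan nuclear receptor, was 5.88, 7.76 and 6.58 FPKM in C79, C84 and C85 and 9.31, 16.6 and 12.4 FPKM in E75, E77 and E90, without overlap (-0.80 ± 0.18 SE, adjusted p = 0.113). Nr4a2 was 0.631, 0.815 and 0.634 FPKM in group C and 1.41, 1.32 and 2.99 FPKM in group E (-0.74, adjusted p = 0.207), and Fosl2, an AP-1 subunit, was 1.69, 1.92 and 2.15 FPKM in group C and 2.73, 4.01 and 3.15 FPKM in group E (-0.55, adjusted p = 0.147). The list mean was 2.19, 2.38 and 2.40 in C79, C84 and C85 and 2.63, 2.89 and 2.71 in E75, E77 and E90, against 2.44, 2.41 and 2.20 in the saline mice.

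Windows of the Nr4a family are shown because each held 4 matches to TGACG, the core letters of a cAMP response element, on either strand (capitals).
Nr4a1 (chr15:101266596-101266895, plus strand): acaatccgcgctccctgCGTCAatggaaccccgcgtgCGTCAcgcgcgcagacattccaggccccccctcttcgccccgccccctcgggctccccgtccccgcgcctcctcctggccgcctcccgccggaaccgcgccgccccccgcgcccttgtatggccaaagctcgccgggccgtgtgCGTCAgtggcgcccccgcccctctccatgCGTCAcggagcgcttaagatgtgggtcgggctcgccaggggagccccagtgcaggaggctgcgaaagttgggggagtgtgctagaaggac
Nr4a2 (chr2:57123954-57124253, minus strand): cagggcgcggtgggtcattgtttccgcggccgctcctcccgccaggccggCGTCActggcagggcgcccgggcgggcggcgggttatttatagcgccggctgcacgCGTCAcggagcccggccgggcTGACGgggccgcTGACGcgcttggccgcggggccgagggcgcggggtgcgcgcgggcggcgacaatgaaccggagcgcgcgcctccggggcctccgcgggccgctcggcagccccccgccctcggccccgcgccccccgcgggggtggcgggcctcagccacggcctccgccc
Nr4a3 (chr4:48045055-48045354, plus strand): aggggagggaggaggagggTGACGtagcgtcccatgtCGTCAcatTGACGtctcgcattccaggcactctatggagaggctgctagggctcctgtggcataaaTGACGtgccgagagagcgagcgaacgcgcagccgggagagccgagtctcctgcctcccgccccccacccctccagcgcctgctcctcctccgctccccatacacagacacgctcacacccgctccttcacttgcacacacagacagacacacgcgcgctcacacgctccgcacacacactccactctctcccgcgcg
TGACG occurred in 10 of the 13 immediate early genes with a window and in 23.0% of all symbols, and 4 or more matches occurred in 3 of those genes and in 0.255% of all symbols. These 3 windows were picked for their matches. The full element TGACGTCA matched only Btg2 and Dusp1 of the 13, against 2.03% of all symbols.

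Enzymes that remove superoxide and peroxide did not pass in either direction. Of 20 measured, 15 were higher in C, 4 of them without overlap, 1 (Txnrd1) was lower in C without overlap, and the median was 0.19, or 0.073 with the ribosomal protein score as a covariate. Over all genes, 44.7% were higher in C, 6.61% were higher without overlap and 10.3% lower without overlap. Sod1, the cytosolic copper-zinc superoxide dismutase and itself an ALS gene, was 238, 146 and 273 FPKM in C79, C84 and C85 and 177, 142 and 151 FPKM in E75, E77 and E90. C84 lay at the level of the E mice, so the groups overlapped (0.44 ± 0.23 SE, adjusted p = 0.502). Sod2, the mitochondrial manganese enzyme, was 28.0, 27.1 and 28.0 FPKM in group C and 27.4, 30.96 and 30.97 FPKM in group E (-0.10, adjusted p = 0.806), and the extracellular Sod3 was 4.51, 5.62 and 4.51 FPKM in group C and 5.64, 2.56 and 3.87 FPKM in group E (0.27, adjusted p = 0.650). Ccs, the copper chaperone of Sod1, differed by 0.33, adjusted p = 0.555, and catalase (Cat) by 0.017, adjusted p = 0.972.

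Among glutathione peroxidases, Gpx1 was 66.2, 62.9 and 76.2 FPKM in group C and 48.7, 37.6 and 48.9 FPKM in group E, all C mice above all E mice (0.60, adjusted p = 0.149), and Gpx4, which reduces lipid peroxides, was 143, 111 and 148 FPKM in group C and 104, 91.5 and 96.4 FPKM in group E (0.45, adjusted p = 0.222). Gpx3 (-0.16, adjusted p = 0.743), Gpx7 (0.063, adjusted p = 0.925) and Gpx8 (-0.085, adjusted p = 0.936) overlapped between groups. The peroxiredoxins, thiol peroxidases, were all higher in C, by 0.17 for Prdx1, 0.24 for Prdx2, 0.064 for Prdx3, 0.21 for Prdx4, 0.34 for Prdx5 and 0.31 for Prdx6, with adjusted p from 0.393 to 0.831. Thioredoxins and their reductases differed by 0.28 for Txn1, 0.16 for Txn2, -0.14 for Txnrd1 and -0.0050 for Txnrd2. The manganese transporters did not pass: Slc39a8 differed by 0.10, adjusted p = 0.719, Slc39a14 by -0.010, adjusted p = 0.990, the exporter Slc30a10 by -0.10, adjusted p = 0.746 and Slc11a2 by -0.095, adjusted p = 0.672. Fth1, the ferritin heavy chain that stores iron, was 9153, 7931 and 9255 FPKM in group C and 5164, 4966 and 5965 FPKM in group E, without overlap (0.71, adjusted p = 0.265).

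**Figure D4:**
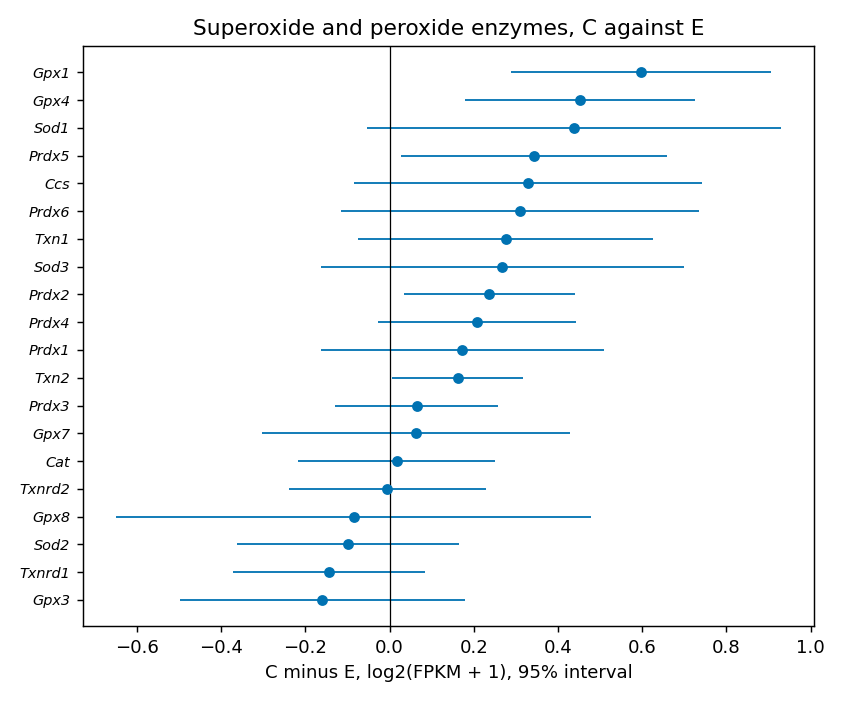
Difference between C and E (C minus E, log2(FPKM + 1), points with 95% intervals) for 20 superoxide and peroxide enzymes, ordered by size. It runs from -0.16 for Gpx3 to 0.60 for Gpx1, and none passed after adjustment over 18118 genes.

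Ribosomal protein genes were higher in C in 30 of 30 cases, with none passing and a median of 0.48. Their mean was 6.71, 6.11 and 6.84 in C79, C84 and C85 and 6.31, 5.92 and 6.06 in E75, E77 and E90, so C79 and C85 stood above the other 4 mice and C84 lay below E75. Of 32 nuclear genes of oxidative phosphorylation, 28 were higher in C, with a median of 0.26 and the same order of mice: 6.02, 5.55 and 6.03 in C79, C84 and C85 and 5.65, 5.51 and 5.54 in E75, E77 and E90. Uqcrq, a subunit of complex III, was 44.6, 26.0 and 49.95 FPKM in group C and 28.0, 19.5 and 22.3 FPKM in group E (0.73, adjusted p = 0.255). Differences also followed exon length, with a median of 0.13 in the 1812 genes of shortest exon length and -0.082 in the 1812 longest. With that trend removed the differences of Prdx3, Gpx7 and Cat changed sign.

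Interferon response genes were lower in C in 19 of 20 cases, none passed, and the median was -0.52, while their mean was 2.21, 2.26 and 2.99 in C79, C84 and C85 and 3.03, 2.05 and 3.83 in E75, E77 and E90, so E77 was the lowest of all 6. With the Schwann score as a covariate that median was 0.99. Homeostatic microglial genes were higher in C in 14 of 15 cases (median 0.15) and disease-associated microglial genes in 18 of 24 (median 0.18), with none passing. Both medians turned with the caudal Hox score as a covariate, to -0.34 and -0.40, and were 0.40 and 0.76 with the Schwann score. Of 10 border and blood macrophage genes, 7 were lower and 3 higher in C, and none passed. Their median was -0.18, or 0.29 with the Schwann score as a covariate. Of these, Ms4a7 (0.388, 0.280 and 0.563 FPKM in group C and 1.31, 1.19 and 2.84 FPKM in group E, -0.94, adjusted p = 0.0865) and Mrc1 (0.796, 1.47 and 0.636 FPKM in group C and 1.73, 1.56 and 3.24 FPKM in group E, -0.68, adjusted p = 0.310) were lower in each C mouse. Complement C3 was 67.7, 129.6 and 78.8 FPKM in group C and 39.5, 35.0 and 48.6 FPKM in group E, higher in each C mouse without passing (1.10, adjusted p = 0.227), and H2-Aa, a class II antigen-presenting chain, overlapped (-0.95, adjusted p = 0.361). C3 was the highest of 15 complement genes, of which 8 were higher and 7 lower in C, with a median of 0.0075. H2-Aa was the lowest of 15 antigen presentation genes, of which 4 were higher and 11 lower in C, with a median of -0.10. None of either list passed. Tm4sf1, a membrane protein, was 12.3, 14.9 and 15.1 FPKM in group C and 8.45, 6.35 and 7.60 FPKM in group E (0.84, adjusted p = 0.188).

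**Figure D5:**
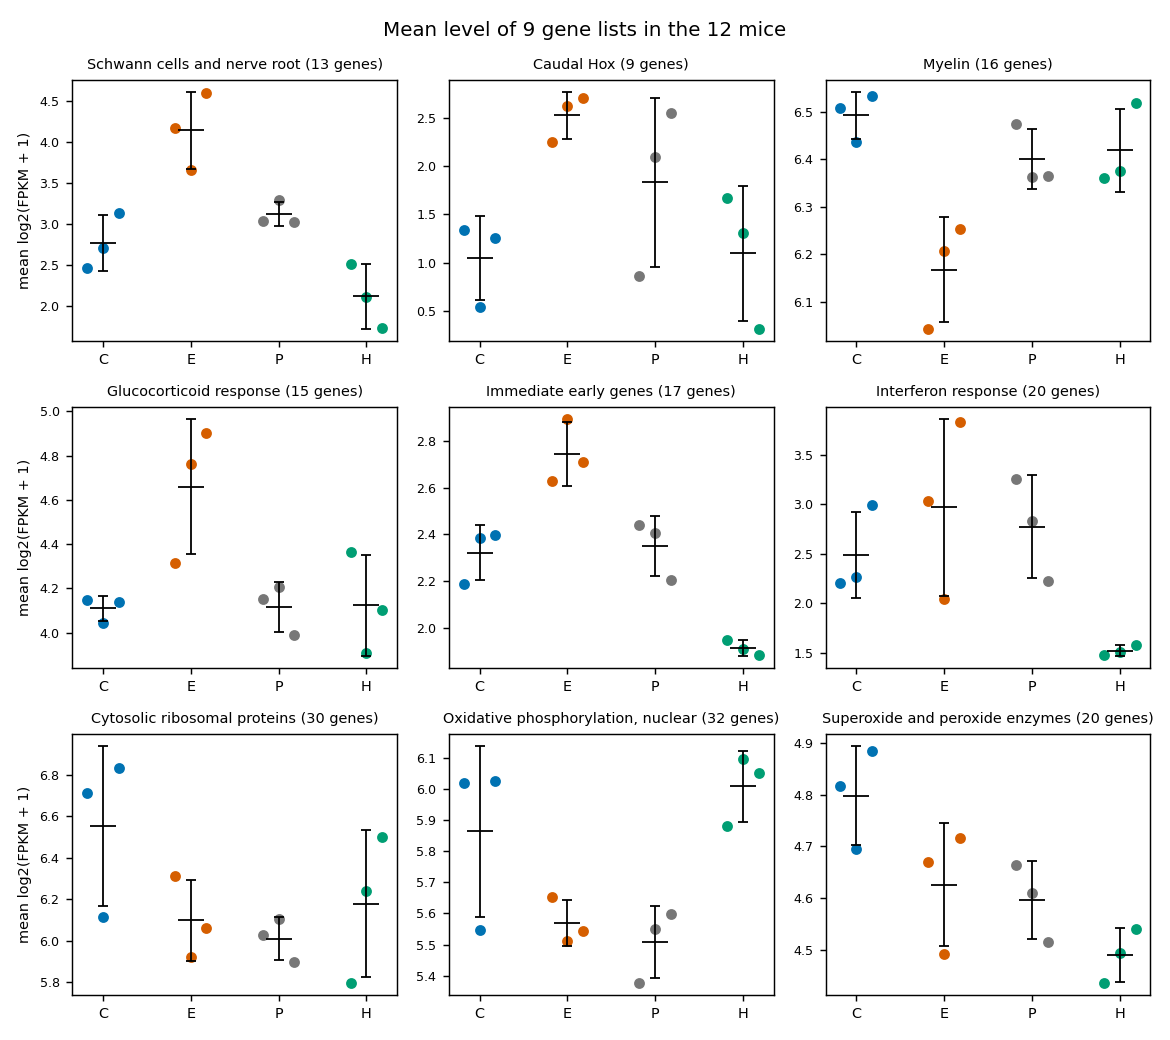
Mean log2(FPKM + 1) (vertical axes) of the tested members of 9 gene lists in each mouse of groups C, E, P and H, with 1 point per mouse and black marks for the mean and SD of 3 mice. The Schwann list lies between 2.47 and 3.14 in C and between 3.66 and 4.61 in E, and the myelin list between 6.44 and 6.53 in C and between 6.04 and 6.25 in E.

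Motor neuron genes had a median of -0.0530 over 19 genes and general synaptic genes 0.0494 over 20, with none passing. With the caudal Hox and Schwann scores as covariates these medians were 0.47 and 0.69 for motor neurons and 0.30 and -0.047 for synaptic genes. Of 14 genes of inhibitory transmission, 12 were lower in C (median -0.17), as were 12 of 14 of excitatory transmission (median -0.10). Gad2, an enzyme of GABA synthesis, was 13.4, 14.6 and 12.4 FPKM in group C and 21.5, 21.1 and 17.9 FPKM in group E (-0.55, adjusted p = 0.136). Ecel1, a protease induced in injured neurons, was 16.4, 18.5 and 17.7 FPKM in group C and 28.2, 24.5 and 26.1 FPKM in group E (-0.56, adjusted p = 0.0685), and Stmn4, a stathmin, was 97.1, 81.0 and 103 FPKM in group C and 67.5, 55.4 and 57.2 FPKM in group E (0.63, adjusted p = 0.0539). The 18 ALS-linked genes had a median of -0.0133, and none passed. Skeletal muscle genes were highest in E90, at a mean of 2.08 against 0.26 to 0.69 in the other 5 mice.

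Genes that differed between saline and healthy mice were compared between the treatments. The 2216 genes higher in P had a median C minus E of -0.041, and 60.0% of them were lower in C, against 55.3% of all genes. The 591 genes lower in P had a median of 0.13, and 441 of them were higher in C. The share of them lower in C was 25.4%, against 55.3% of all genes. Of the first set 9 genes passed lower in C, where 0.121% of all genes did. Of the second, 8 passed higher in C, where 0.0497% of all genes did. These are the same genes as those counted above among the passing genes, by the same fit, and not a second observation. The mean level of the first set was 2.73 ± 0.078 in C and 2.76 ± 0.10 in E (SD, n = 3, log2(FPKM + 1)), a difference smaller than either spread. That of the second set was 3.94 ± 0.066 in C and 3.77 ± 0.050 in E, against 3.67 ± 0.16 in saline and 4.26 ± 0.046 in healthy mice.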

How the data were processed

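RNA of the lumbar cord of 12 mice was extracted with TRIzol and poly(A) selected, per the labels' protocols. The submitters' processing notes name HISAT2, featureCounts, cutadapt and the build GRCm38, and give no version or strand setting in the sources used here. The authors deposited 1 table per group of values read here as FPKM, scaled per library. The tables name no unit: multiplied by GENCODE M21 exon lengths, 95.2 to 95.7% of low values lay within 0.02 of whole reads, which summed to 106.6 to 108.0% of the scaling total for a reason not resolved.

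Of 33906 identifiers, 33829 matched GENCODE M21. Genes with about 10 recovered reads in at least 3 libraries and 15 in all were tested (18118), and 15788 were set aside. limma 3.58.1 in R 4.3.3 was fitted to log2(FPKM + 1) of all 12 libraries with 1 mean per group and trended, robust variances. Tests were two-sided, with Benjamini-Hochberg adjustment over all genes and a threshold of 0.05. The script was tested on simulated data with 1 spread for all genes. It recovered 28 of 100 genes changed 2-fold and 99 of 100 changed 4-fold, with 3 false calls. A gene that did not pass is therefore not shown to be equal between groups.

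Members and lists were chosen with earlier results of these data known. The rule for named genes took the 8 largest passing differences per direction (where fewer passed, the 8 of smallest p), up to 3 members of smallest p per list, and all superoxide and peroxide enzymes with 4 manganese transporters. It took 175 genes. The text names a part of them, narrowed after it had been seen how many changed sign under other settings, but keeps every enzyme and transporter of the last group. Cldn11, Hoxd10, Mbp, Ncmap, Ngfr and Prx were added after their values were seen. Some genes that passed or that the rule takes are not reported here. Promoter windows are from RefSeq (GRCm38.p6). Alternatives covered the pseudocount, filter, scaling, model, covariates, and each mouse left out. The ribosomal covariate, the removal of the length trend and the fit without healthy mice were added after seeing the data.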

Additional observations from a re-analysis of the deposited data

How the results depend on the processing

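No paired analysis was possible because no mouse number is shared between groups. The 31 genes (9 higher and 22 lower in C) became 4 (1 and 3) with C and E fitted alone, 17 (5 and 12) with a pseudocount of 0.1, 4 (2 and 2) with no filter and 54 (17 and 37) with the length trend removed. They became 0 (0 and 0) with the caudal Hox, Schwann or ribosomal protein score as a covariate, and 0 without the healthy libraries (lowest adjusted p 0.0548). At an unadjusted p of 0.05 by limma, 1991 genes differed in the reported fit, 1631, 1536 and 1065 with those covariates, 2118 without the healthy libraries and 1173 without C79. Leaving out 1 mouse gave 0 (without C79) to 56 (without E77), with 0 to 33 higher and 0 to 51 lower. The medians of the disease genes moved with covariates: those higher in P to -0.21 (caudal Hox) and 0.11 (Schwann), those lower in P to 0.32 (caudal Hox). No passing gene changed sign in any of 19 settings. For most settings this was fixed in advance. All 31 genes were without overlap, so leaving out mice or changing the pseudocount or filter could not turn their sign. Of the 175 genes the naming rule takes, 46 changed sign under at least 1 setting, 83 times in all, of which 28 were under the Schwann covariate, 25 under the caudal Hox covariate and 11 under the ribosomal covariate. Among the genes given values in the text, the sign changed with the Schwann covariate for Prx 0.11, Ogn 0.0467, Dcn 0.0422, Nr4a2 0.0627, Txnrd1 0.13, Gpx3 0.0821, Sod2 0.00371, Gpx8 0.58, Slc39a14 0.38 and Txnrd2 0.00257, and with the caudal Hox covariate for Hoxd10 0.73, Prdx6 -0.14, Txnrd1 0.0368, Sod3 -0.0389, Prdx1 -0.0894, Sod2 0.22, Gpx7 -0.0991 and Cat -0.000835. With the ribosomal covariate it changed for Sod1 -0.0489, Ccs -0.0480, Txn1 -0.0593, Prdx1 -0.0510, Sod2 0.000318 and Slc39a14 0.0536, with the length trend removed for Prdx3 -0.0215, Gpx7 -0.0359, Cat -0.00151, Slc39a14 0.0736 and Txnrd2 0.0284, and with median-ratio scaling for Slc39a14 0.00979 and Txnrd2 0.0115. It changed when 1 mouse was left out for Cat (-0.0607 to 0.11), Gpx3 (-0.30 to 0.00758), Gpx7 (-0.0342 to 0.24), Gpx8 (-0.23 to 0.0575), Slc39a14 (-0.0930 to 0.10) and Txnrd2 (-0.0540 to 0.0822). Prx is a member of the Schwann list and Hoxd10 of the caudal Hox list, so each was adjusted by a score that holds it. The cause was not tested. Levels of a few reads per library, such as those of Hoxd13, limit what depth can show. Sign changes were not listed for markers given as levels only, such as Hoxc10 and Hoxa10.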
